A study of Mus musculus with 12 samples.

Results

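The cell cycle and proliferation set comprised 42 of the 54109 genes in the count table: 18 genes that act in S phase, when DNA is copied, and 24 that act in mitosis, when the copies are parted. The Ensembl identifiers of the table were mapped to mouse symbols with GENCODE release M21, and all listed genes were taken. The list was made with earlier results of these data known. All 42 were found, and all passed the filter on low counts in every comparison, with 217 to 72940 reads per gene and library. By role, 12 members license origins or work at the replication fork (Mcm2 to Mcm7, Cdc6, Cdt1, Gins2, Pcna, Hells and Uhrf1), 4 supply nucleotides (Tyms, Rrm1, Rrm2, Tk1) and 2 are the E cyclins of S phase entry (Ccne1, Ccne2). Of the mitotic members, 10 are cyclins, kinases and factors of mitotic entry and exit (Ccna2, Ccnb1, Ccnb2, Cdk1, Plk1, Aurka, Cdc20, Ube2c, Top2a, Mki67). A further 8 belong to the kinetochore, the spindle checkpoint or the chromosomal passenger complex (Birc5, Aurkb, Cdca8, Bub1, Bub1b, Cenpa, Cenpe, Cenpf), and 6 are spindle motors or act in cytokinesis (Kif11, Kif20a, Kif23, Nusap1, Prc1, Tpx2).

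All mice had acute colitis from dextran sulfate sodium (DSS), a polymer that injures the colonic epithelium, so there was no group without colitis. The 4 groups of 3 libraries each were full colon of wild-type mice (colon WT), full colon of Gpr15l-/- mice (colon KO), LPMC of wild-type mice (LPMC WT) and LPMC of Gpr15l-/- mice (LPMC KO). LPMC usually stands for lamina propria mononuclear cells, the leukocytes of the gut wall, and Gpr15l encodes a secreted ligand of the chemoattractant receptor Gpr15. The labels give no strain, sex, age or DSS dose. They also leave unsaid whether each library is its own animal, and the p-values below therefore cover only library-to-library spread, part of which may be technical.

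Dividing cells load the Mcm2 to Mcm7 helicase on replication origins in G1 with the help of Cdc6 and Cdt1, fire those origins in S phase, and raise the transcripts of mitotic regulators in G2. The S phase genes are largely driven by E2F factors, whereas the mitotic genes are driven later by B-Myb, Foxm1 and the MuvB complex through CHR and CCAAT elements in their promoters. In the colon most dividing cells sit in the crypts, where they replace the epithelium, and activated lymphocytes, germinal centre B cells and plasmablasts also divide.

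Promoter sequences were read from the RefSeq windows of GRCm38.p6 (250 bases before to 50 after a start site), which held 35 of the 42 members; Aurkb, Tpx2, Kif20a, Ccna2, Mcm4, Ccne2 and Gins2 had none. Letters were searched on both strands for a CHR element (spelled TTTGAA, or in its other common form TTCGAA), for a CCAAT box (those same letters) and for an E2F site (TTTGGCGC, TTTCGCGC, TTTCCCGC or TTTGCCGC), and matches of different motifs may overlap. A CHR match lay in 16 of 20 mitotic windows (80%) and 2 of 15 S phase windows (13.3%), against 21.7% of the 27025 genes with a window. A CCAAT match lay in 18 of 20 mitotic windows (90%), 9 of 15 S phase windows (60%) and 41.1% of all genes. An E2F match lay in 8 of 15 S phase windows (53.3%), in 1 of 20 mitotic windows (5%), that of Cdk1, and in 2.6% of all genes. The Birc5 window held none of the 3. These matches describe letters, not bound sites. The stretches below are 200 bases each, 5′ to 3′ on the gene's strand and free of annotated exons, with the motif matches in capitals. Birc5 (chr11:117849037-117849236, plus strand), Ube2c (chr2:164769698-164769897, plus strand) and Cdk1 (chr10:69352939-69353138, minus strand) are shown because they were the mitotic members lower in LPMC than in colon in both genotypes, Top2a (chr11:99024190-99024389, minus strand) as a mitotic gene that was not called there, and Mcm5 (chr8:75109309-75109508, plus strand) and Mcm6 (chr1:128359706-128359905, minus strand) as licensing genes.
Birc5: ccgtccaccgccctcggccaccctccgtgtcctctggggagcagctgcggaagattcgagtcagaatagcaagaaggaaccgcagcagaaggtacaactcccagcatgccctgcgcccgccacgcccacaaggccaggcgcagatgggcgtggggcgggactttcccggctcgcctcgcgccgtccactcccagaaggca
Ube2c: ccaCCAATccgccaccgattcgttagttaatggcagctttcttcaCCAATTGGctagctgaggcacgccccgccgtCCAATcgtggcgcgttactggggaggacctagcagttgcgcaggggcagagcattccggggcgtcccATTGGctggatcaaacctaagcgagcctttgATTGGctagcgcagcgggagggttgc
Cdk1: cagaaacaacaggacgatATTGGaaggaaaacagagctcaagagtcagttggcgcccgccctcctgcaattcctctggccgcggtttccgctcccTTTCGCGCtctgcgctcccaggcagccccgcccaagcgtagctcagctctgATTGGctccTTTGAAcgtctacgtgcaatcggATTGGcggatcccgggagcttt
Top2a: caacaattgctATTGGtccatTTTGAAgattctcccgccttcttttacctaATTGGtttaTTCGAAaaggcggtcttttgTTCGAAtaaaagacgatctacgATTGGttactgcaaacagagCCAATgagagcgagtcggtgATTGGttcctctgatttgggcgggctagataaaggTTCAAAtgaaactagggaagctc
Mcm5: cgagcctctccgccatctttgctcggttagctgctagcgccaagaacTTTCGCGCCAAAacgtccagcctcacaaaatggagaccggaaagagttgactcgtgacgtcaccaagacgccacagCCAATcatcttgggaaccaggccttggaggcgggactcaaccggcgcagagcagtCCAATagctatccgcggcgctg
Mcm6: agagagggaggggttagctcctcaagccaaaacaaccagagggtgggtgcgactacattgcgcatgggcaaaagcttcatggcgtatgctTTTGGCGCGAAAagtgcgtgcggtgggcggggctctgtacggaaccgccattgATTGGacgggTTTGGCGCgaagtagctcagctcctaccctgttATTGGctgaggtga
The Top2a stretch, upstream of the topoisomerase that untangles sister chromatids, held 4 CHR and 5 CCAAT matches. The Ube2c stretch held 6 CCAAT matches, and its CHR match lay in the window outside the printed bases. The Mcm5 and Mcm6 stretches held 2 and 3 E2F matches, some of them overlapping on opposite strands.

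Total counts were 45.4 to 140.7 M reads per library, and 0.171 to 0.453% of them fell on the 42 genes. The deleted gene, listed as 2610528A11Rik, had 4 to 20 reads in the KO libraries and 15639 to 80362 in the WT libraries, so the genotype labels held for all 12 libraries. The LPMC libraries were not free of epithelium: Epcam, which marks epithelial cells, stood at 964 to 1410 CPM there and 1330 to 2430 CPM in colon, whereas Ptprc, which marks leukocytes, stood at 76.5 to 297 CPM in LPMC and 4.11 to 124 CPM in colon. CPM here means read counts relative to the library's total after scaling by TMM factors. Colon WT 1 and colon KO 2 stood apart from the other colon libraries in the levels of the cell cycle genes. They also had the highest sums of absorptive colonocyte markers, 8390 and 12100 CPM, where the remaining 4 had 2600 to 5390 CPM. Colon WT 1 held 799 CPM of B cell markers, where the other colon libraries had 1.88 to 17.8 CPM, and colon KO 2 held the highest sums of epithelial markers (38200 CPM) and smooth muscle markers (2030 CPM) of the colon libraries. Markers of germinal centre B cells, another dividing population, summed to only 28.3 to 63.2 CPM in the 12 libraries. The part of these cell types in the levels below was not tested, and in bulk RNA fewer dividing cells and less RNA per dividing cell cannot be told apart.

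Summed over the 42 genes, the level was 2110, 4580 and 4310 CPM in colon WT 1 to 3 and 4290, 1930 and 3940 CPM in colon KO 1 to 3. It was 2870, 3420 and 2910 CPM in LPMC WT 1 to 3 and 3100, 2550 and 2660 CPM in LPMC KO 1 to 3. The colon libraries were thus split, with colon WT 1 and colon KO 2 below all 6 LPMC libraries and the other 4 colon libraries above them. Group means were 3670 ± 1360 CPM in colon WT, 3390 ± 1270 CPM in colon KO, 3070 ± 307 CPM in LPMC WT and 2770 ± 294 CPM in LPMC KO (SD, n = 3). The highest library of a colon group held 2.17 times (WT) or 2.23 times (KO) the lowest, against 1.19 and 1.22 times in LPMC. The mean level in LPMC was 0.836 times that in colon among WT libraries and 0.818 times among KO libraries by TMM-scaled CPM, but 1.57 and 1.36 times per unit of summed epithelial markers. Without the lowest colon library of each genotype, left out after its values were seen, the latter ratios were 1.28 in WT and 1.02 in KO. Per unit of epithelial marker the KO libraries of the tissues overlapped, with LPMC KO 2 at 0.168 below colon KO 1 at 0.215 and colon KO 3 at 0.203, so the higher KO ratio rested on colon KO 2 at 0.0505.

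**Figure D1:**
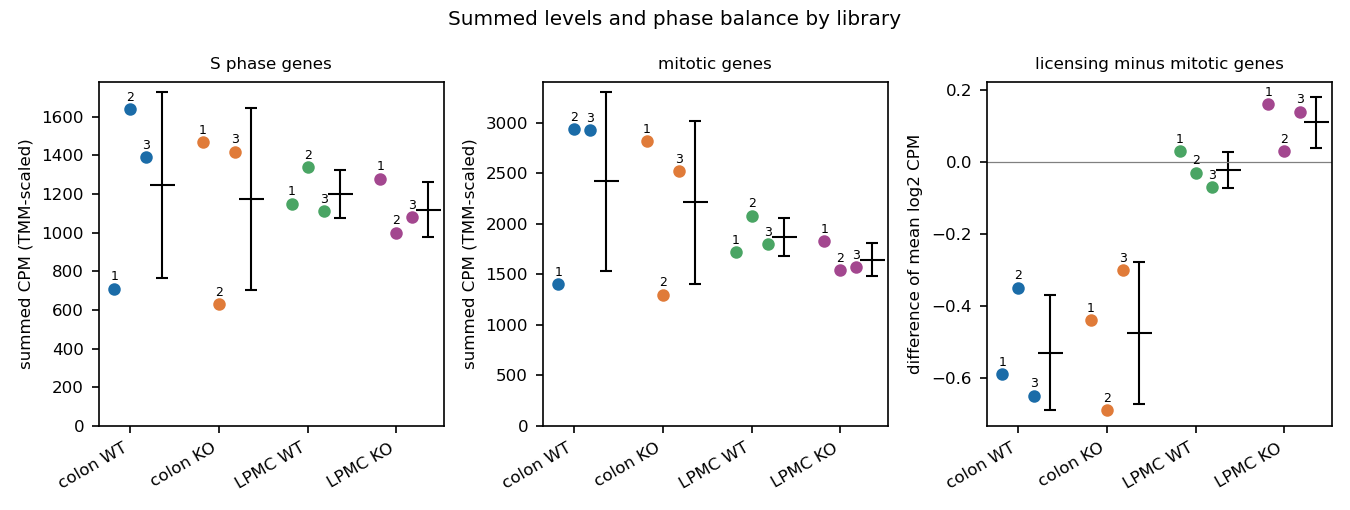
Summed level of the 18 S phase genes and of the 24 mitotic genes (TMM-scaled CPM, left and middle) and the mean log2 CPM of the 12 licensing genes minus that of the 24 mitotic genes (right) in each library, by group. Numbered points are libraries, and the bar beside them is the mean with its SD (n = 3). Colon WT 1 and colon KO 2 lie lowest in both sums, and the difference at right lies at -0.30 or below in every colon library and at -0.07 or above in every LPMC library.

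Compared per kilobase of annotated exon, the levels of the members spanned a wide range. Over the 12 libraries Pcna, the sliding clamp of the DNA polymerases, averaged 54.6 CPM per kb. It was followed by Cdc20, an activator of the anaphase-promoting complex, with 50.1 CPM per kb and by the mitotic kinase Plk1 with 45.1 CPM per kb. The lowest were Ccne2 (1.82 CPM per kb), Cdc6 (2.78 CPM per kb) and the kinetochore protein Cenpf (2.86 CPM per kb).

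Across the colon libraries the members moved together. Colon WT 1 and colon KO 2 were the 2 lowest of the 6 colon libraries for 40 of 42 members (95.2%), against 3024 of 20989 genes tested (14.4%). Colon KO 2 was lowest for 30 members and colon WT 1 for the other 12. The exceptions to the pair were Birc5 and Ube2c, for which colon KO 2 and colon KO 3 were lowest. The highest colon library held 1.75 to 4.0 times the lowest (median 2.72, against 2.16 over all genes tested). In LPMC this ratio was 1.17 to 1.83 (median 1.48, against 1.7 over all genes tested), with LPMC WT 2 highest for 30 members and LPMC KO 2 lowest for 27.

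Mki67, the proliferation antigen that coats mitotic chromosomes, shows the split. Its level was 223, 447 and 465 CPM in colon WT 1 to 3, 531, 180 and 488 CPM in colon KO 1 to 3, 324, 329 and 336 CPM in LPMC WT and 356, 315 and 304 CPM in LPMC KO. The LPMC libraries lay within a narrow band between the low and the high colon libraries. Mcm2, a subunit of the replicative helicase, reached 42.8, 99.6 and 78.1 CPM in colon WT, 85.9, 27.5 and 84.6 CPM in colon KO, 84.8, 97.8 and 79.2 CPM in LPMC WT and 101, 78.1 and 79.8 CPM in LPMC KO. For Mcm2 the 6 LPMC libraries lay at the height of the 4 high colon libraries rather than below them. Top2a had 151, 353 and 283 CPM in colon WT, 335, 145 and 354 CPM in colon KO, 207, 258 and 226 CPM in LPMC WT and 239, 174 and 192 CPM in LPMC KO, so that its LPMC values fell in the gap between the colon libraries.

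As a description of how closely a member followed the rest, its deviation from the group means was correlated with the mean deviation of the other 41 members. Over the 6 colon libraries r was 0.796 to 0.999 (median 0.982, over 0.9 for 39 members), where the points share the split of the colon libraries. Over the 6 LPMC libraries r was -0.169 to 0.983 (median 0.894) and under 0.3 for Ccne2, Cenpe, Cenpf, Plk1 and Hells. Outside the set, the 5 genes whose deviations over the 12 libraries were most like the mean of the members were Ckap2l (r = 0.997), Spdl1 (0.994), Cenpn (0.993), Dsn1 (0.993) and Ptma (0.992).

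**Figure D2:**
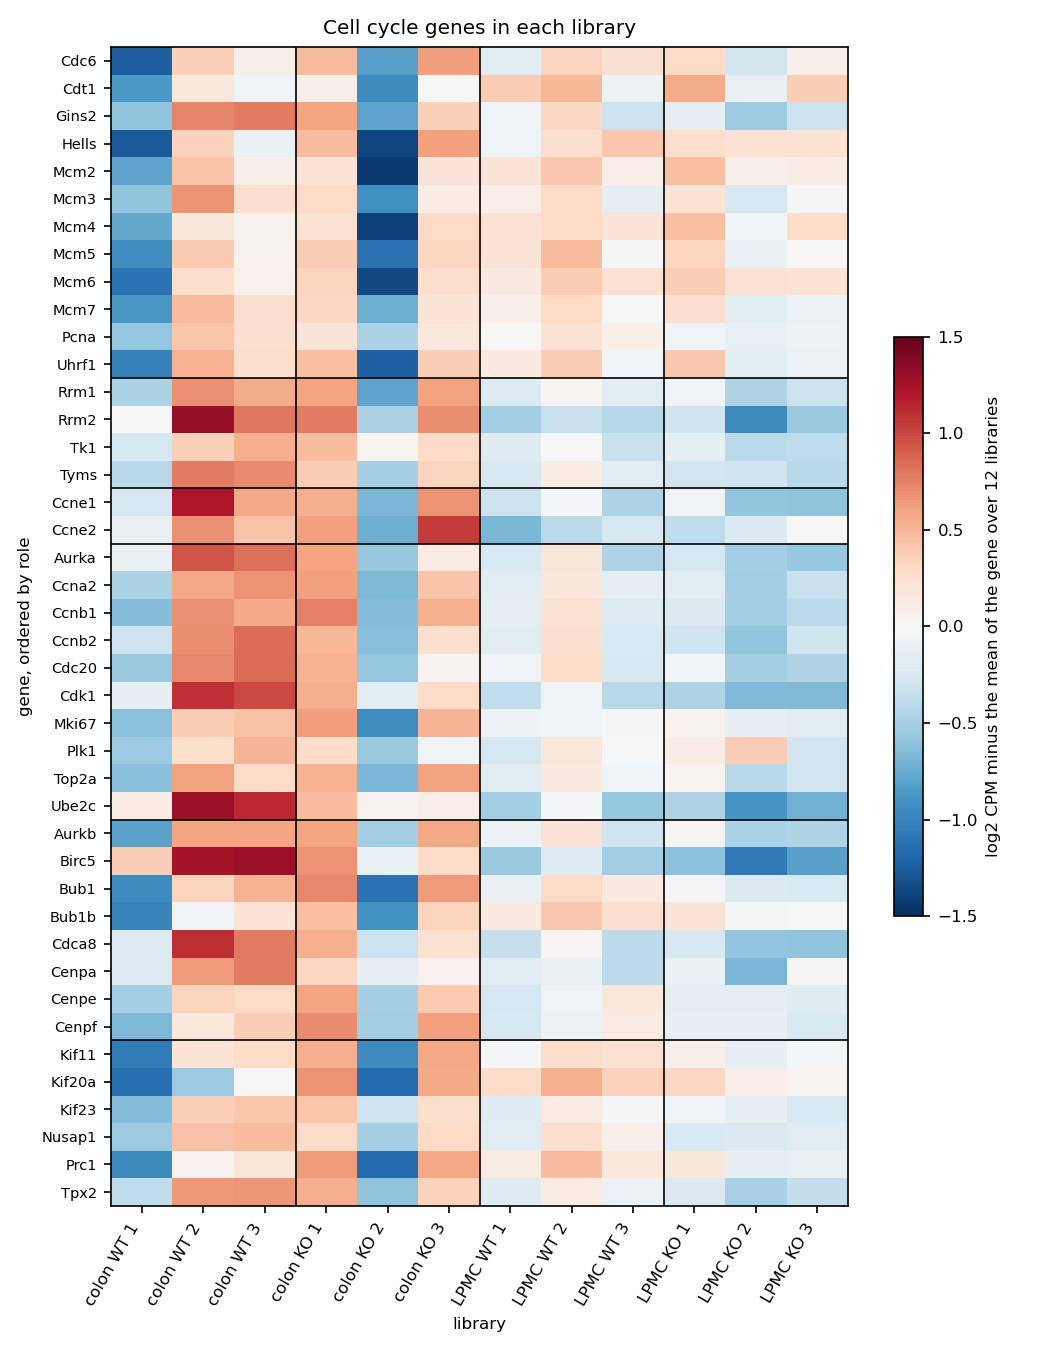
Log2 CPM of each of the 42 genes in each library minus the gene's mean over the 12 libraries (colour, red above and blue below the mean), with genes in rows ordered by role and libraries in columns by group. The columns of colon WT 1 and colon KO 2 are blue for most genes, and the licensing genes at the top are near or above their mean in the LPMC columns, while Birc5, Ube2c, Cdk1 and Rrm2 are below theirs.

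Between tissues, 5 members were lower in LPMC than in colon among WT libraries and 3 among KO libraries, and none was higher (edgeR's quasi-likelihood test on all 12 libraries, Benjamini-Hochberg adjusted over 20989 genes, called under 0.05). All genes were called far more often, 35.4% in WT (17.8% higher, 17.5% lower) and 28.1% in KO (14.5% higher, 13.6% lower), against 11.9% and 7.14% of the members. The 3 members called in KO, Birc5, Ube2c and Cdk1, were also called in WT, where they made up 60% of the calls. The 2 comparisons share no library, but they share 1 estimate of the spread. Of the members, 27 of 42 were below 0 in WT and 32 in KO, with medians of -0.17 and -0.39 on the log2 scale, beside 50% and a median of 0 for all genes in both.

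Birc5, the survivin subunit of the chromosomal passenger complex, parted the tissues most clearly. It stood at 91.9, 169 and 174 CPM in colon WT 1 to 3 and at 114, 66.8 and 86.6 CPM in colon KO 1 to 3, against 48.5, 62.3 and 49.5 CPM in LPMC WT and 46.7, 34.0 and 40.7 CPM in LPMC KO. Every LPMC library lay below every colon library. The log2 fold change was -1.44 (SE 0.26, edgeR adjusted p = 0.00225) in WT and -1.14 (SE 0.26, adjusted p = 0.009103) in KO.

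Ube2c, the ubiquitin-conjugating enzyme of the anaphase-promoting complex, had 99.3, 226 and 200 CPM in colon WT, 127, 95.8 and 98.3 CPM in colon KO, 64.7, 91.0 and 62.1 CPM in LPMC WT and 67.0, 49.9 and 56.0 CPM in LPMC KO. Again no LPMC library reached a colon library, though LPMC WT 2 came close to colon KO 2. Its log2 fold change was -1.27 (SE 0.28, edgeR adjusted p = 0.005753) in WT and -0.89 (SE 0.28, adjusted p = 0.0335) in KO.

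Cdk1, the kinase that starts mitosis, had 69.2, 161 and 150 CPM in colon WT, 110, 67.7 and 92.2 CPM in colon KO, 58.2, 72.5 and 56.4 CPM in LPMC WT and 54.7, 47.7 and 47.8 CPM in LPMC KO. The WT groups overlapped, since LPMC WT 2 exceeded colon WT 1, while the KO groups did not. Its log2 fold change was -1.02 (SE 0.28, edgeR adjusted p = 0.01686) in WT and -0.85 (SE 0.28, adjusted p = 0.04342) in KO.

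The other 2 members called in WT were Rrm2, the small subunit of ribonucleotide reductase, and Cdca8 (borealin), a passenger complex partner of Birc5. Rrm2 stood at 63.9, 157 and 110 CPM in colon WT and 44.1, 50.3 and 47.0 CPM in LPMC WT, without overlap (log2 fold change -1.23, SE 0.36, edgeR adjusted p = 0.02089). Among KO libraries its change of -1.01 (SE 0.35) missed the threshold (edgeR adjusted p = 0.05328). Cdca8 was at 50.5, 126 and 100 CPM in colon WT and 46.0, 60.1 and 44.5 CPM in LPMC WT, and the lowest colon library lay within the LPMC range (log2 fold change -0.88, SE 0.31, edgeR adjusted p = 0.0457). In KO its change was -0.66 (SE 0.31, adjusted p = 0.1291). Both genes are named because they were called, beyond the rule for printing values per library.

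**Figure D3:**
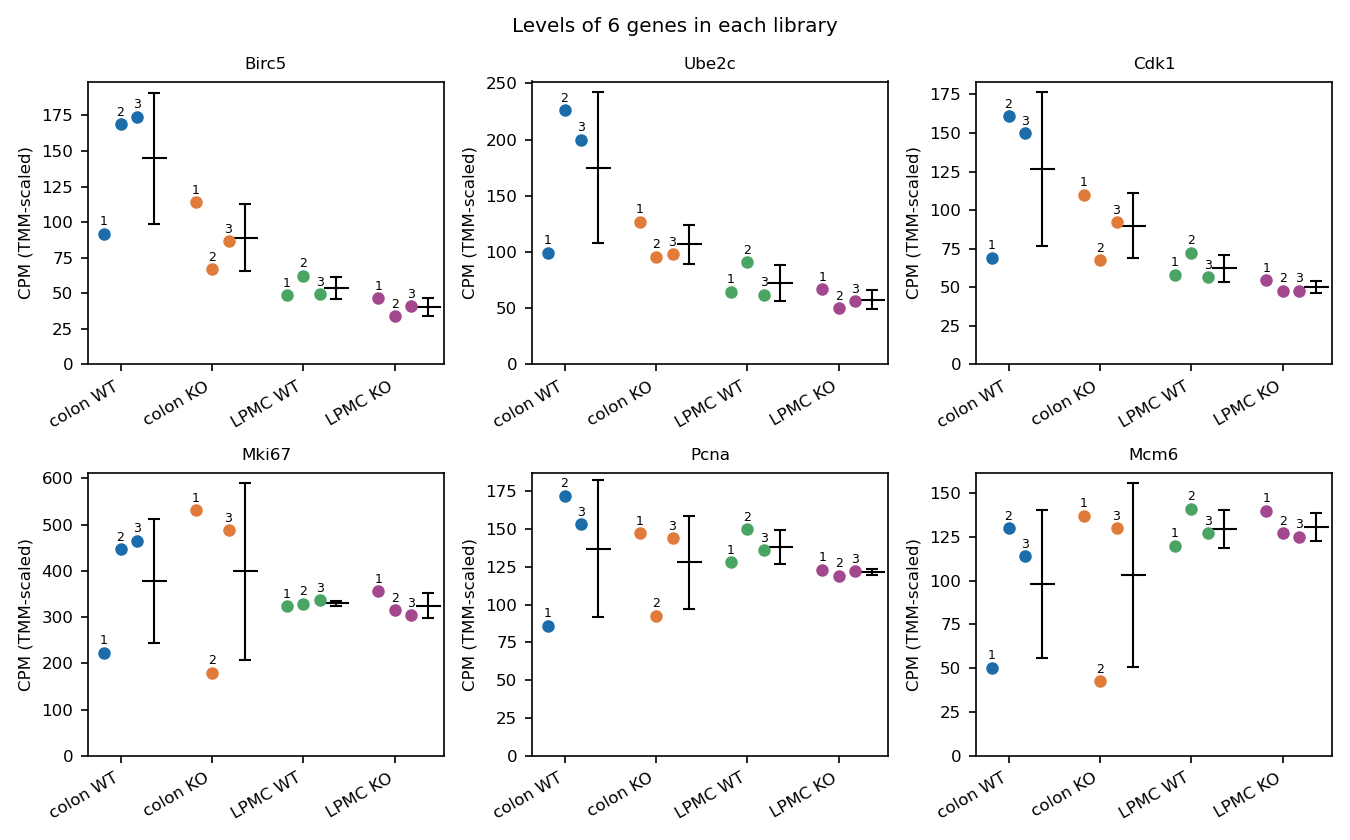
TMM-scaled CPM of Birc5, Ube2c, Cdk1, Mki67, Pcna and Mcm6 in each library by group. Numbered points are libraries and the bar beside them is the mean with its SD (n = 3). Birc5 and Ube2c are lower in every LPMC library than in any colon library, while the LPMC libraries of Mki67, Pcna and Mcm6 lie between or beside the high and the low colon libraries.

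The roles did not share this pattern evenly. Of the 12 licensing and fork genes none was called, and 10 were above 0 in WT (median 0.26) and 9 in KO (median 0.07). All 4 nucleotide genes and both E cyclins were below 0 in both genotypes, with medians of -0.49 and -0.85 in WT and -0.55 and -0.68 in KO. The 10 mitotic cyclins, kinases and exit factors were all below 0 in WT (median -0.41, 2 called) and 9 were in KO (median -0.53, 2 called). The kinetochore and passenger genes had medians of -0.21 and -0.49, with 2 and 1 called, and the spindle genes 0.06 and -0.26, with none called. Because all of these compare a gene with the library, the balance within a library was also computed, after the values had been seen, as the mean log2 CPM of the licensing genes minus that of the mitotic genes. It was -0.59, -0.35 and -0.65 in colon WT 1 to 3, -0.44, -0.69 and -0.30 in colon KO 1 to 3, 0.03, -0.03 and -0.07 in LPMC WT and 0.16, 0.03 and 0.14 in LPMC KO. The tissues did not overlap, and this difference does not depend on the scaling of the libraries; it is given as a description, with no test.

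Pcna and Tyms illustrate the 2 sides of S phase. Pcna was at 86.0, 172 and 153 CPM in colon WT, 147, 92.6 and 144 CPM in colon KO, 128, 150 and 136 CPM in LPMC WT and 123, 119 and 122 CPM in LPMC KO. Its LPMC libraries lay inside the colon range, and the change of 0.01 (SE 0.24, edgeR adjusted p = 0.9766) in WT turned to -0.01 with DESeq2's size factors. Tyms, which makes thymidylate, was at 36, 81.8 and 78.2 CPM in colon WT, 62.5, 33.8 and 60.4 CPM in colon KO, 40.6, 51.6 and 42.7 CPM in LPMC WT and 39.7, 38.8 and 36 CPM in LPMC KO. Here too the groups overlapped, with changes of -0.54 (SE 0.30, edgeR adjusted p = 0.1805) in WT and -0.45 (SE 0.30, adjusted p = 0.2788) in KO.

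Other measures moved with the tissue. Immediate early and heat shock genes that cell isolation is known to induce (Fos, Jun, Hspa1a and others) summed to 490 to 1330 CPM in colon and 12000 to 18600 CPM in LPMC, and all 10 of them were called higher in both genotypes. Epithelial markers were lower, with 7 of 10 called in WT and 6 of 10 in KO. Crypt stem and progenitor markers were higher, with 5 of 9 called in each genotype and sums of 142 to 463 CPM in colon and 619 to 1130 CPM in LPMC. Markers of some other cells of the gut wall were higher in LPMC too, while those of others were not. In WT the calls were 6 of 6 for plasma cells, 4 of 8 for T cells, 5 of 6 for fibroblasts, 5 of 6 for endothelium and 6 of 6 for red blood cells. In KO they were 4 of 6, 8 of 8, 3 of 6, 5 of 6 and 5 of 6 in that order. By contrast, 2 of 10 monocyte and macrophage genes were called lower in WT and 2 higher in KO. For neutrophils, 1 of 8 was called lower in each genotype and 1 higher in KO. Of 6 general leukocyte genes, 0 were called in WT, where 5 were above 0 (median 1), and 3 were called higher in KO (median 2.93). No B cell or smooth muscle gene was called in either genotype. All 7 B cell genes were below 0 in WT (median -1.52) and above 0 in KO (median 4.59). The WT direction rested on colon WT 1, with 799 CPM of B cell markers. Colon WT 2 and 3 had 2.46 and 13.7 CPM, below the 62.9 to 171 CPM of LPMC WT. All 8 smooth muscle genes were below 0 in KO (median -1.52). Plasma cell markers summed to 528 to 633 CPM in colon and 865 to 3490 CPM in LPMC, and T cell markers to 5.27 to 45.3 CPM and 44.8 to 189 CPM. The part of all these measures in the cell cycle values was not tested. Members with shorter exons had lower medians than longer ones (-0.34 and -0.13 in WT, -0.49 and -0.32 in KO; split at 4.31 kb).

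The number of calls rests on the 2 colon libraries that stand apart. Without colon WT 1 and colon KO 2, a choice made after the data were seen, 23 members (54.8%) were called in WT (22 lower, and Kif20a higher) and 26 (61.9%) in KO, all lower, where 40.9% and 26.7% of all genes were called. Since these were the lowest colon libraries for nearly all members, leaving them out by construction raises the colon means and narrows the spread within colon. The 2 comparisons share 1 estimate of that spread. Without colon KO 2 alone, which is in neither WT group, 10 members were called in WT at a median of -0.20, against -0.17 with all libraries. Without colon WT 1 alone, 6 were called in KO at a median of -0.39, the same as with all libraries. Leaving out 1 library at a time gave 2 calls (without colon WT 2, LPMC WT 1 or LPMC WT 3) to 10 (without colon WT 1 or colon KO 2) in WT. In KO it gave 1 call (without colon KO 1, colon KO 3 or any LPMC KO library) to 9 (without colon KO 2), and 6 without colon WT 1. Of all genes, 25.2 to 38.7% were called in these WT fits and 16.7 to 28.9% in the KO fits.  Birc5 was called in every one of these fits. In KO, Ube2c and Cdk1 lost their calls in each fit that left 1 call. Cdk1 also lost its KO call without colon WT 3 or any LPMC WT library. In WT, Cdk1 lost its call without colon WT 2, colon WT 3, LPMC WT 1 or LPMC WT 3.

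**Figure D4:**
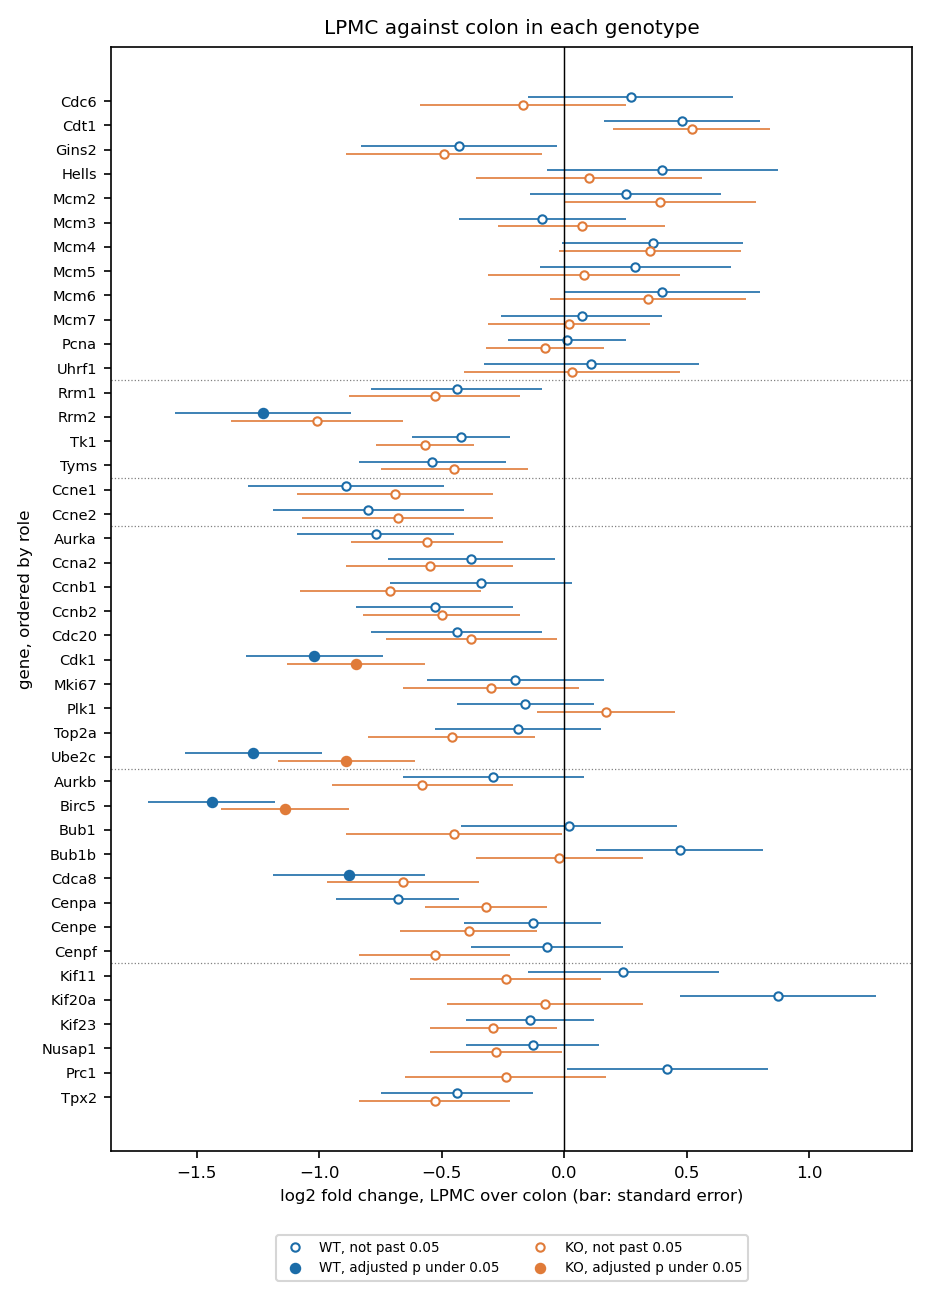
Log2 fold change of LPMC over colon for each of the 42 genes, in rows ordered by role, among WT libraries (blue) and KO libraries (orange), with the standard error as a bar. Filled points passed an adjusted p of 0.05 and open points did not. The filled points are Birc5, Ube2c and Cdk1 in both genotypes and Rrm2 and Cdca8 in WT, all left of 0, while most licensing genes at the top lie right of 0.

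Genes around the members were taken from lists of the pathway. Of 19 genes of G1 control, 3 were called higher and 3 lower in WT LPMC (31.6% in all), and 3 and 2 in KO LPMC (26.3%), shares near the 35.4% and 28.1% of all genes. Myc, which drives entry into the cycle, was higher by 1.27 (SE 0.25, edgeR adjusted p = 0.003373) in WT and 1.61 (SE 0.25, adjusted p = 0.001274) in KO. The activator E2f2 was lower, its log2 change being -0.97 (SE 0.16, adjusted p = 0.001166) in WT and -0.87 (SE 0.16, adjusted p = 0.002596) in KO, both by edgeR.

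Of 12 CDK inhibitors and arrest genes, 3 were called higher and 2 lower in WT (41.7%) and 3 and 1 in KO (33.3%), again near the shares of all genes. The antiproliferative gene Btg2, also an immediate early gene, stood at 82.1 to 170 CPM in colon and 724 to 1390 CPM in LPMC, a log2 difference of 2.94 (SE 0.34, edgeR adjusted p = 0.0001876) in WT and 3.08 (SE 0.34, adjusted p = 0.0001596) in KO. Trp53 was higher by 0.81 (SE 0.16, adjusted p = 0.003025) and 0.71 (SE 0.16, adjusted p = 0.007185) in the same edgeR fits. Of 8 genes listed with the mitotic transcription machinery, Myb was called higher in WT (0.98, SE 0.25, edgeR adjusted p = 0.01206) and none in KO. Myb is not the gene of B-Myb, the driver of mitotic genes named above.

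Of all genes, 17.5% were called lower in WT LPMC and 13.6% in KO LPMC. Among 31 other replication genes, 5 were called lower in WT (16.1%) and none in KO (0%), and none higher. The lower ones included Dut, which removes dUTP (-1.25, SE 0.31, edgeR adjusted p = 0.01014), and the licensing inhibitor Gmnn (-0.86, SE 0.20, adjusted p = 0.007703). Among 36 other mitosis genes, 5 were called lower in WT (13.9%) and 2 in KO (5.56%), and none higher. These shares too were under those of all genes. Spc25, an Ndc80 complex subunit of the kinetochore, was lower in both, by log2 fold changes of -1.11 (SE 0.22, edgeR adjusted p = 0.003442) and -0.99 (SE 0.22, adjusted p = 0.007768). Cdkn3, a phosphatase of Cdk1 and Cdk2, was lower in both too, by -1.27 (SE 0.31, edgeR adjusted p = 0.009117) and -1.03 (SE 0.31, adjusted p = 0.02842).

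In full colon, no member passed the test for loss of Gpr15l. None of the 42 was called between colon KO and colon WT (edgeR's quasi-likelihood test on the 6 colon libraries, Benjamini-Hochberg adjusted over 19303 genes), where 1 gene in all was called (0.00518%), and DESeq2 called 33 genes (0.171%) and no member. At an unadjusted p under 0.05 there was 1 member, Birc5 (2.38%), against 7.79% of all genes. No member had groups without overlap, against 14.3% of all genes. The members split about evenly, with 23 of 42 below 0 (54.8%, against 49.5% of all genes) and a median log2 fold change of -0.06 (0.01 for all genes). By exon length, 15 of the 21 shorter members were below 0 (median -0.14), but only 8 of the 21 longer ones (median 0.06, split at 4.31 kb). The part of length was not tested.

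The members of lowest p were Birc5, Ube2c and Cdk1, whose colon KO values are given above. Birc5 changed by -0.71 (SE 0.30, edgeR adjusted p = 0.6322), Ube2c by -0.72 (SE 0.31, adjusted p = 0.6322) and Cdk1 by -0.50 (SE 0.34, adjusted p = 0.6942). For each of them colon WT 1 lay among the KO libraries and the other WT libraries above them all. Mki67 (0.07, SE 0.45), Top2a (0.07, SE 0.42) and Mcm2 (-0.17, SE 0.47) had standard errors several times their change. The mitotic cyclin Ccnb1, at 28.3, 71.8 and 66.2 CPM in colon WT and 75.3, 28.3 and 64.6 CPM in colon KO, had overlapping ranges in the genotypes (log2 fold change 0.00, SE 0.45, edgeR adjusted p = 0.9979).

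The direction of the median in colon turned with single libraries. It was -0.36 without colon WT 1, -0.24 without colon KO 1 and -0.22 without colon KO 3, but 0.15 without colon WT 2, 0.06 without colon WT 3 and 0.21 without colon KO 2. Without both colon WT 1 and colon KO 2 it was -0.06 and no member was called. In that fit 12 members (28.6%) had an unadjusted p under 0.05, against 20.4% of all genes. In counts simulated for this comparison (19303 genes), edgeR called 1 of 100 genes given a 2-fold change and 36 of 100 given a 4-fold change. The changed genes were few and picked at random over all expression levels. These figures therefore do not give the chance of detecting a change in the members.

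In LPMC no member was called between KO and WT either, where 2 of 19426 genes were called (0.0103%) by edgeR and 34 (0.175%) by DESeq2, again with no member among them. Without adjustment 3 members had a p under 0.05, all lower in KO (7.14% of the members, against 1.44% of all genes lower at that p and 2.64% in either direction). These were Birc5 (-0.41, SE 0.16), Cdk1 (-0.32, SE 0.13) and Tpx2 (-0.31, SE 0.12), each with an edgeR adjusted p of 0.9984. The count of 3 was not stable: it was 0 without LPMC WT 2, LPMC KO 2 or LPMC KO 3, 4 without LPMC WT 1, 6 without LPMC WT 3 or LPMC KO 1, 0 in a fit on all 12 libraries and 1 by DESeq2. Tpx2, which nucleates spindle microtubules, stood at 63.7, 79.0 and 68.9 CPM in LPMC WT and 62.8, 52.1 and 56.9 CPM in LPMC KO, just without overlap. In colon Tpx2 had 56.3, 115 and 116 CPM in WT and 107, 48.2 and 92.6 CPM in KO, with overlap.

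Small differences of 1 direction ran through the mitotic members in LPMC. Of the 42 members 36 were below 0 (85.7%, against 50.8% of all genes), with a median of -0.18 (0 for all genes); for the mitotic members it was 23 of 24 with a median of -0.27, and for the S phase members 13 of 18 with -0.13. Every library of KO was below every library of WT for 8 members (19%, against 3.75% of all genes, and 7.41% in either direction): Birc5, Cdk1, Tpx2, Ccnb1, Ccnb2, Nusap1, Tyms and Pcna. Ccnb1 was at 40.6, 52.2 and 38.5 CPM in LPMC WT and 38.3, 31.0 and 33.9 CPM in LPMC KO (log2 fold change -0.36, SE 0.15, edgeR adjusted p = 0.9984). Since the members move together between libraries, these counts are not 42 separate observations, and LPMC WT 2 alone was the highest library for 30 of them. The median was -0.11 without LPMC WT 2 and -0.27 without LPMC KO 1. Beside this, in LPMC the summed neutrophil markers were 64.1 to 126 CPM in WT and 78.8 to 604 CPM in KO, and the absorptive colonocyte markers 2700 to 4410 CPM in WT and 1430 to 3170 CPM in KO. Of other marker lists, 6 of 6 plasma cell genes (median log2 fold change -0.83), 8 of 8 smooth muscle genes (-0.91) and 6 of 6 endothelial genes (-0.42) were below 0. Above 0 were 9 of 10 monocyte and macrophage genes (0.94), 7 of 7 B cell genes (0.79) and 7 of 8 T cell genes (0.51). For each of those cell types, the sums of LPMC KO 1 and LPMC KO 3 lay above every LPMC WT library, and that of LPMC KO 2 below. LPMC KO 2 had 218 CPM of monocyte and macrophage markers, against 242 to 432 CPM in LPMC WT. For B cells it had 46.0 CPM against 62.9 to 171 CPM, and for T cells 44.8 CPM against 75.2 to 108 CPM. No marker gene of any list named here was called, and their part was not tested.

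**Figure D5:**
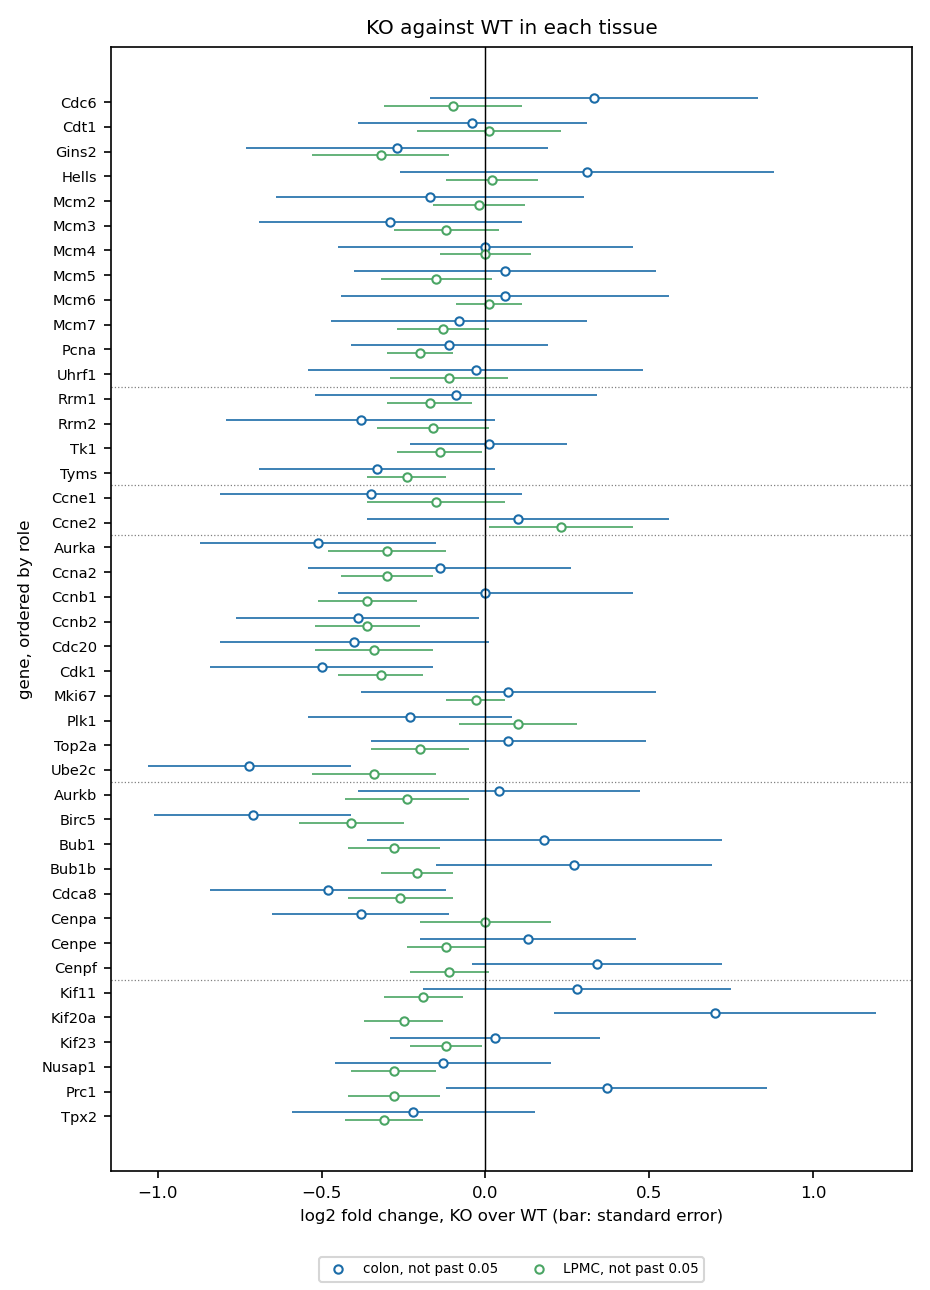
Log2 fold change of KO over WT for each of the 42 genes, in rows ordered by role, in colon (blue) and in LPMC (green), with the standard error as a bar. No point passed an adjusted p of 0.05. The LPMC points of the mitotic genes lie left of 0 with one exception above it, while the colon points spread to both sides with wider bars.

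The difference between the genotype effects of the tissues was tested as an interaction on all 12 libraries. It was called for no member and for 0 of 20989 genes (0%) by edgeR, while DESeq2 called 3 genes (0.0143%) and no member. An unadjusted p under 0.05 was reached by 985 genes (4.69%) and by no member. The median over the members was -0.08, and it too turned with single libraries: it was 0.21 without colon WT 1, 0.15 without colon KO 1 and 0.05 without colon KO 3, but -0.36 without colon KO 2, -0.27 without colon WT 2 and -0.20 without colon WT 3. The lowest p belonged to the cytokinesis kinesin Kif20a, the midzone organizer Prc1 and Cenpf, all with a larger KO to WT ratio in colon than in LPMC. Kif20a stood at 13.4, 20.2 and 29.6 CPM in colon WT, 46.9, 13.1 and 43.5 CPM in colon KO, 35.7, 42.6 and 37.4 CPM in LPMC WT and 36.6, 31.4 and 30 CPM in LPMC KO. In colon the high KO libraries exceeded all WT libraries and the low one fell below them, and the interaction was -0.95 (SE 0.57, edgeR adjusted p = 0.9022).

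Prc1 had 21.7, 44.0 and 48.1 CPM in colon WT, 66.1, 18.9 and 63.3 CPM in colon KO, 46.2, 58.5 and 47.4 CPM in LPMC WT and 47.7, 38.9 and 39.3 CPM in LPMC KO (interaction -0.66, SE 0.58, edgeR adjusted p = 0.9084). Cenpf had 26.5, 47.5 and 54.7 CPM in colon WT, 69.5, 29.7 and 65.1 CPM in colon KO, 35.9, 40.3 and 46.3 CPM in LPMC WT and 39, 38.8 and 36.1 CPM in LPMC KO (interaction -0.46, SE 0.44, edgeR adjusted p = 0.9149). For both, colon KO 1 and colon KO 3 exceeded every colon WT library, and colon KO 2 lay near the lowest of them.

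No gene of the pathway lists was called for genotype in colon or LPMC or for the interaction by edgeR. In colon the arrest gene Cdkn2d, at 27.0, 38.9 and 29.4 CPM in WT and 18.8, 22.5 and 20 CPM in KO, had groups without overlap (log2 fold change -0.65, SE 0.21, edgeR adjusted p = 0.6322). In LPMC 35 of 36 other mitosis genes were below 0, with a median of -0.24, as in the members. The lowest p among them belonged to Hmmr, a spindle protein, at 39.2, 44.4 and 44.3 CPM in LPMC WT and 36.1, 35.7 and 33.4 CPM in LPMC KO (log2 fold change -0.29, SE 0.10, edgeR adjusted p = 0.9984). Its groups did not overlap, but like the members it missed the threshold.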

How the data were processed

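RNA of 12 libraries was measured by poly(A) RNA-seq with a strand-keeping TruSeq kit on a HiSeq instrument, per the labels' protocols. Reads were handled with STAR on GRCm38 (mm10), per the submitters' processing notes; for STAR's version, the counting tool, the annotation and the strand setting, the sources used here say nothing. The authors deposited whole-number read counts per Ensembl gene without normalization. Of 54109 identifiers 54042 matched GENCODE M21. Between 66.6 and 76.6% of counts from 1 to 20 were even, so a count may not be 1 fragment, and counting error may be larger than the counts imply. No 2 replicates agreed within sampling noise.

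From these counts, edgeR 4.0.16 in R 4.3.3 gave TMM-scaled CPM and quasi-likelihood F-tests (filterByExpr, minimum count 10, robust, Benjamini-Hochberg over all genes tested, called under 0.05). KO against WT was fitted on the 6 libraries of a tissue, and the tissue contrasts and the interaction on all 12. The standard error is the size of the log2 fold change over the square root of F. DESeq2 1.42.0, its size factors, no filter, a replicate block, other library sets and each library left out were alternatives. Of 100 genes given a 2-fold and 100 given a 4-fold change in simulated counts, edgeR called 6 and 41 for WT LPMC against colon (20989 genes) and 10 and 54 for LPMC KO against WT (19426 genes).

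The members and lists were chosen with earlier results of these data known. Values per library are printed for Mki67, Top2a, Ccnb1, Cdk1, Birc5, Pcna, Mcm2, Tyms and the 3 members of lowest p in each contrast, and pathway genes were named from up to 3 of lowest p per list and contrast. Likeness used r of deviations from group means, over genes whose mean log2 CPM was 1 or more. The labels do not say whether replicate numbers pair the libraries, and the main fits used no pairing.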

Additional observations from a re-analysis of the deposited data

How the results depend on the processing

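In the genotype comparisons and the interaction, 0 members were called under every alternative run. The count over all genes was less stable. In colon it was 1, with 33 by DESeq2, 2 in a fit on all 12 libraries and 0 to 1 with a library left out. In LPMC it was 2, with 34 by DESeq2, 4 without the filter on low counts and 1 to 2 with a library left out. For the interaction it was 0, with 3 by DESeq2. Between tissues, members called were 5 in WT (2 to 10 with a library left out, 23 without colon WT 1 and colon KO 2) and 3 in KO (5 by DESeq2, 5 with its size factors, 1 to 9 with a library left out, 26 without those 2 libraries). All genes called were 7421 in WT and 5893 in KO, and 5464 to 8440 and 3647 to 6269 with a library left out. The level of LPMC over colon was 1.57 (WT) and 1.36 (KO) relative to epithelial markers.

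With 1 library left out, the log2 fold change between genotypes in colon ranged from -0.20 to 0.42 for Mki67, -0.20 to 0.38 for Top2a, -0.31 to 0.32 for Ccnb1, -0.35 to 0.09 for Pcna and -0.44 to 0.20 for Mcm2. In LPMC it ranged from -0.09 to 0.01 for Mki67 and -0.14 to 0.07 for Mcm2. The interaction ranged from -0.44 to 0.16 for Mki67, -0.29 to 0.15 for Pcna, -0.04 to 0.46 for Cdk1, -0.22 to 0.41 for Mcm2 and -0.14 to 0.37 for Tyms. Between tissues the range was -0.23 to 0.21 for Pcna, -0.02 to 0.53 for Mcm2 and -0.46 to 0.09 for Top2a in WT and -0.29 to 0.01 for Pcna in KO. Pcna in WT was also -0.01 with DESeq2, -0.01 with its size factors, -0.0016 in the 6-library fit and -0.21 without colon WT 1 and colon KO 2. The cause was not tested for any of these.

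Whether replicate numbers pair the libraries could not be settled, since differently numbered libraries were not compared. Correlations of same-numbered libraries ran from -0.274 to 0.303, and no contrast had all of them over 0.1. Between colon and LPMC they were 0.135, 0.081 and 0.163 in WT and 0.064, 0.303 and 0.182 in KO. With a replicate block the tissue contrasts called 4 members in WT (9.52%, against 32.7% of all genes), Cdca8 being lost, and 1 in KO (2.38%, against 25.8%), Ube2c and Cdk1 being lost. In LPMC no member had an unadjusted p under 0.05 with the block, both genotype contrasts called 0 genes, and the colon change was -0.0044 for Mki67 and -0.0044 for Ccnb1.

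The lowest count of a member in a library was 217. Whether depth or the number of libraries limits the calls was not tested.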

Other observations

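Of 9 crypt stem and progenitor markers, 5 were called higher in LPMC in each genotype, and the smallest change was 0.01 in WT and 0.12 in KO. Lgr5, the receptor that marks crypt base stem cells, stood at 0.193, 0.232 and 1.02 CPM in colon WT, 1.12, 0.946 and 3.29 CPM in colon KO, 6.30, 10.7 and 14.2 CPM in LPMC WT and 9.21, 21 and 9.91 CPM in LPMC KO. All LPMC libraries lay above all colon libraries, with a log2 fold change of 4.42 (SE 0.77, edgeR adjusted p = 0.001781) in WT and 2.90 (SE 0.71, adjusted p = 0.01216) in KO. Sox9, a transcription factor of crypt progenitors, was higher by 2.69 (SE 0.37, edgeR adjusted p = 0.0005052) and 2.90 (SE 0.37, adjusted p = 0.0004007), and Axin2, a target of Wnt signalling, by 1.35 (SE 0.38, adjusted p = 0.01779) and 1.56 (SE 0.38, adjusted p = 0.01184). In the same comparisons 0 of 42 cell cycle genes were called higher, against 17.8% of all genes in WT and 14.5% in KO. Lgr5, Sox9 and Axin2 were chosen for this paragraph after their values were seen.

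Summed crypt markers were lowest in colon WT 1 (142 CPM) and next lowest in colon KO 2 (237 CPM), the colon libraries that were also lowest in the cell cycle genes, and stood at 271 to 463 CPM in the other 4. This did not hold in LPMC. There LPMC KO 2 had the highest crypt marker sum (1130 CPM) and the lowest cell cycle sum (2550 CPM).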
